A study of Rattus norvegicus with 8 samples.

Results

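Retinal ganglion cells send the axons of the optic nerve, and a small set of transcription factors forms them and keeps their identity. The 10 genes described here are such factors: Pou4f1, Pou4f2 and Pou4f3 of the POU class IV family, the LIM homeodomain genes Isl1 and Isl2, the T-box gene Eomes, the basic helix-loop-helix gene Atoh7, the COE family genes Ebf1 and Ebf3, and the Iroquois gene Irx2. Their spots were taken as the non-control spots of the arrays that carry one of these gene names, in all 8 channels. By that rule 8 of the 10 genes were found, among 26334 gene names, on 10 of 42877 non-control spots. Pou4f2, Isl1, Atoh7 and Ebf1 had a spot bright enough to be tested, which makes 4 of the 16307 gene names tested in all. Pou4f3, Isl2, Ebf3 and Irx2 were found but failed the filter on dim or uneven spots, and Pou4f1 and Eomes were not found by gene name.

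The samples were retinas of female Lister Hooded rats aged 8 weeks. In the 4 called ONC the right optic nerve had been crushed 3 mm behind the optic disc, with the forceps held shut for 10 s, and the 4 called CTR had sham surgery in which the forceps did not close. Retinas were taken 2 weeks later, and total RNA was hybridised to 4 rat arrays, each with 2 retinas in 2 dyes. The samples are whole retinas, in which fewer ganglion cells and less RNA per ganglion cell cannot be told apart.

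In the embryonic retina Atoh7 makes progenitors able to become ganglion cells, and Isl1 and Pou4f2 then switch on much of the ganglion cell programme together. Pou4f1, Pou4f3, Isl2, Eomes, Ebf1, Ebf3 and Irx2 act later or differ between ganglion cell subtypes. In the adult retina the Pou4f genes are largely restricted to ganglion cells, whereas Isl1 is also made by ON bipolar cells and cholinergic amacrine cells.

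Each array carries by its label a CTR retina in the red dye (Cy5) and an ONC retina in the green dye (Cy3), so the effect of the dye and that of the crush cannot be told apart. The study's methods describe another placement, with retinas of the same group on an array. Groups were taken from the labels, and a channel is named here by its label alone. Markers of ganglion cells went against some of these labels. With each gene set to its own mean over the 8 channels, the median log2 level of 20 tested ganglion cell effector genes was -0.93, 0.74, -0.77 and -0.52 in the channels labelled CTR1 to CTR4. It was 0.77, 0.75, 0.85 and -0.82 in those labelled ONC1 to ONC4. ONC1, ONC2, ONC3 and CTR2 were thus high and CTR1, CTR3, CTR4 and ONC4 low, although crush is known to kill ganglion cells. No channel was moved to another group, and each member's result below comes with its values when channels were left out.

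A pair of channels also stood close to each other. Over 1192 probes spotted 5 or more times, the mean square of the differences between ONC1 and ONC3 was 1.69 times as large between probes as between spots of the same probe (F ratio), while the other 27 pairs of channels gave ratios of 3.73 to 79.0. ONC1 and ONC3 were kept as 2 samples, and their mean as 1 sample was used as an alternative.

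Signal decided which members could be followed. Over all non-control spots, the median foreground brightness was 468, 626, 447 and 468 in CTR1 to CTR4, where the median local background lay between 55 and 56.5. It was 337, 495, 332 and 218 in ONC1 to ONC4, where the background lay between 26 and 29.5. A spot was tested only if its foreground reached 2 times the background in every channel and it carried no outlier mark. Of all spots, 71.9% to 75.0% reached that ratio in a CTR channel and 98.2% to 99.9% in an ONC channel, whose background was lower. Of the 10 member spots 4 passed and 6 failed, and 5 were well above background in all 8 channels by the scanner software's own test.

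**Figure D1:**
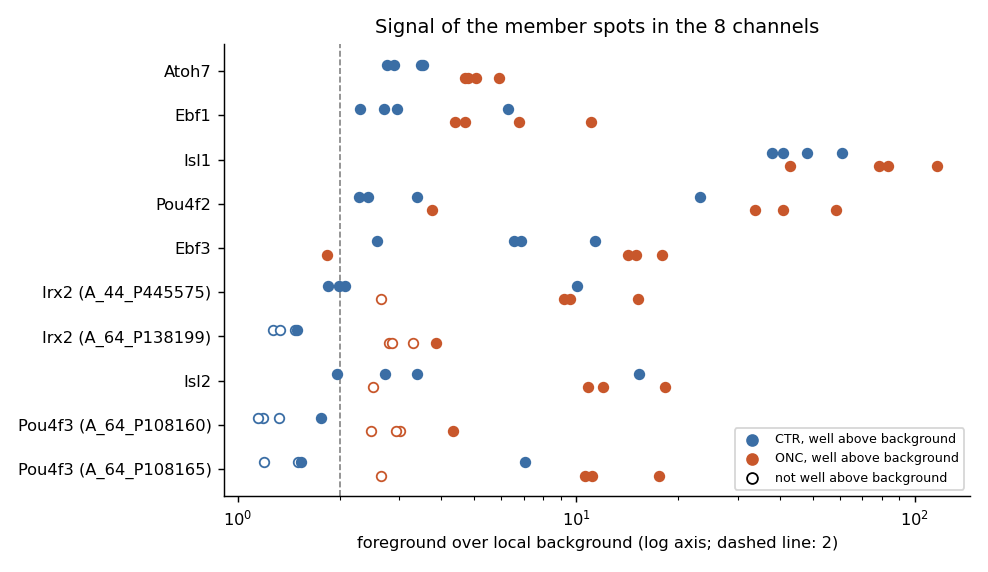
Foreground over local background (log axis) of the 10 member spots, 1 point per channel, with filled points where the software marked the spot as well above background and the dashed line at the filter's ratio of 2. Isl1 lies between 37.9 and 116, and every point left of the line is a CTR channel except Ebf3 in ONC4.

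Pou4f2, also known as Brn3b, is a main POU factor of ganglion cell differentiation and survival. Its probe (A_64_P081765) starts at base 3009 of its transcript and lies at chr19:31392348-31392407, plus strand, in build rn4, which the array design uses. Foreground was 128, 1325, 127 and 171 in CTR1 to CTR4, against 938, 1406, 924 and 103 in ONC1 to ONC4. ONC1, ONC2, ONC3 and CTR2 were bright, and the other 4 channels were dim, at 2.29 to 3.76 times their background. Normalised log2 levels, with the median of each channel at 0, were -4.04, -0.52, -3.95 and -3.02 in CTR1 to CTR4, against -0.03, -0.04, -0.05 and -3.14 in ONC1 to ONC4. The groups overlapped, since CTR2 lay near the 3 high ONC channels and ONC4 lay among the low CTR channels.

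The mean Pou4f2 level was -2.88 ± 1.64 in CTR and -0.81 ± 1.55 in ONC (SD, n = 4 each). By the labels the difference, ONC minus CTR, was 2.07 ± 0.92 (SE), or 4.19-fold higher in ONC, with a 95% interval from -0.02 to 4.15. This direction is opposite to the one the study gives after crush, and so are those of Isl2, Nefm, Nefh, Slc17a6 and Pvalb, which are named below. Of the 16307 genes tested 0 had a larger difference, yet limma did not call Pou4f2 (adjusted p = 0.274). Within the arrays ONC minus CTR was 4.01, 0.48, 3.90 and -0.13, higher in 3 of 4. Without CTR2 the difference was 2.85 (adjusted p = 0.112) and without ONC4 it was 2.84 (adjusted p = 0.119). With any other channel left out it lay between 1.68 and 2.02, and no left-out channel brought a call.

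Isl1, the LIM homeodomain partner of Pou4f2, differed evenly. Its 60-base probe (A_44_P509917) has an open reading frame and lies at chr2:48052237-48052296, minus strand, in rn4. It is shown because its spot carries the one call among the members.
Isl1 probe: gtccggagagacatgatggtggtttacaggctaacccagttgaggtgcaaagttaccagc
Normalised log2 levels were 0.79, 0.91, 0.73 and 0.98 in CTR1 to CTR4, against 1.51, 1.49, 1.49 and 1.48 in ONC1 to ONC4. All 4 ONC channels lay above all 4 CTR channels: for Isl1, CTR2 stood with the CTR channels and ONC4 with the ONC channels.

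The mean Isl1 level was 0.85 ± 0.11 in CTR and 1.49 ± 0.01 in ONC (SD, n = 4 each). The difference was 0.64 ± 0.08 (SE), 1.56-fold, with a 95% interval from 0.46 to 0.82, and limma called it (adjusted p = 0.0418). Within the arrays Isl1 was higher in ONC by 0.72, 0.58, 0.76 and 0.50, that is in 4 of 4. With the array as a block the adjusted p was 0.0285, in a range of 0.00839 to 1 over the alternatives run. The limma call was lost without the filter (adjusted p = 0.205) and with ONC1 and ONC3 averaged as 1 sample (0.167). It was also lost with any replicate number left out, at an adjusted p of 0.0796 to 0.488. The size of the Isl1 difference moved little when 1 channel was left out, from 0.60 to 0.68, but the call did not last. It was kept without ONC2 (adjusted p = 0.0475). It was lost without CTR1 (adjusted p = 0.0823), CTR2 (0.0680), CTR3 (0.143), CTR4 (0.0865), ONC1 (0.174), ONC3 (0.178) or ONC4 (0.0764). In those 7 fits limma called 0 genes of the 16307, with 2085 to 3252 at an unadjusted p under 0.05.

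Atoh7, which begins the ganglion cell programme, was tested but dim. Its probe (A_64_P096743) ends on the stop codon of an open reading frame, in capitals, and lies at chr20:25448686-25448745, plus strand, in rn4. It is shown because Atoh7 stands first in the programme.
Atoh7 probe: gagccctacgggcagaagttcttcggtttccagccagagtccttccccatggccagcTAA
Its foreground was 182, 193, 158 and 160 in CTR1 to CTR4, against 159, 174, 134 and 118 in ONC1 to ONC4. That was 2.76 to 3.54 times the background in CTR channels and 4.70 to 5.90 times in ONC channels, whose background was lower. Log2 levels were -3.04, -3.53, -3.33 and -3.27 in CTR1 to CTR4, against -3.01, -3.49, -3.28 and -2.85 in ONC1 to ONC4. The groups overlapped, and the channels of arrays 1, 2 and 3 lay close in pairs. The means were -3.29 ± 0.20 in CTR and -3.16 ± 0.28 in ONC (SD, n = 4 each). The difference was 0.14 ± 0.16 (SE; adjusted p = 0.701), with 0.03, 0.04, 0.05 and 0.41 within the arrays. It moved with the channel left out, at 0.03 without ONC4, 0.06 without CTR2, 0.09 without ONC1, 0.22 without CTR1 and 0.25 without ONC2, the first and last being the lowest and highest of the 8 left-out fits.

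Ebf1, a COE family factor, had its probe (A_64_P134235) at chr10:30154688-30154747, plus strand, in rn4. Its log2 levels were -3.67, -2.77, -3.33 and -3.44 in CTR1 to CTR4, against -3.52, -2.66, -2.80 and -3.12 in ONC1 to ONC4. CTR2 and ONC2, which share array 2, were the highest of their groups, and the groups overlapped. The means were -3.30 ± 0.38 in CTR and -3.03 ± 0.38 in ONC (SD, n = 4 each). Ebf1 was higher in ONC on 4 of 4 arrays, by 0.15, 0.11, 0.52 and 0.32, and the difference was 0.27 ± 0.23 (SE; adjusted p = 0.576). Without CTR1 it was 0.15, without ONC2 0.15, without ONC1 0.44 and without CTR2 0.45, and the other 4 left-out channels gave values between these.

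**Figure D2:**
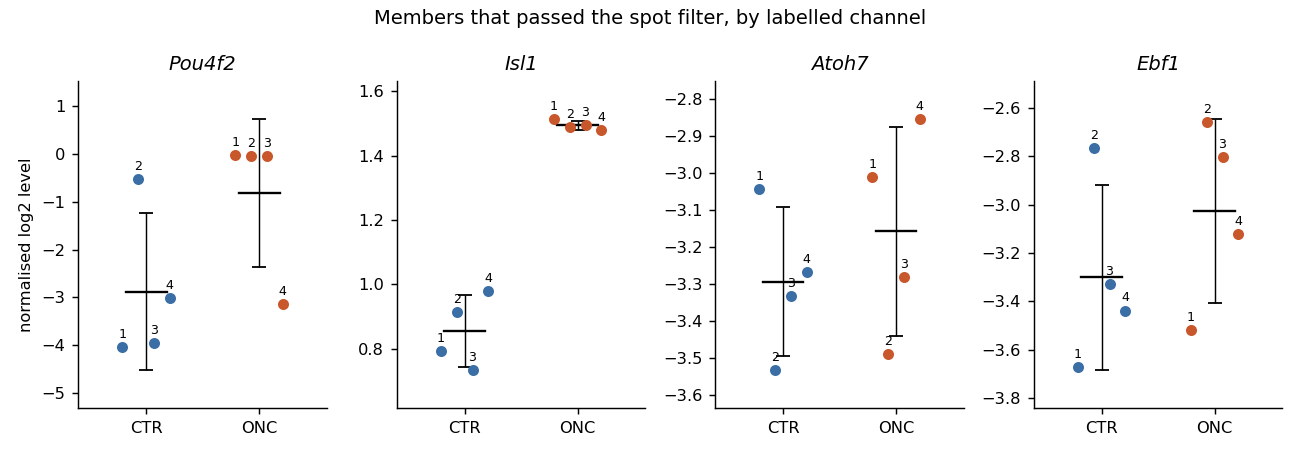
Normalised log2 level (median of each channel at 0) of the 4 members that passed the filter, 1 point per channel with its number, with the mean and SD of each group as bars; each panel has its own scale. The Isl1 groups are apart, while CTR2 sits with the high Pou4f2 points and ONC4 with the low ones.

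Of the 4 members tested 1 was called (Isl1), beside 0.497% of all genes tested (81 of 16307, 38 higher and 43 lower in ONC). With the array as a block 1 of the 4 was called, again Isl1, beside 7.69% (1254 genes). At an unadjusted p under 0.05 the count was 1 of 4, beside 18.6% of all genes (3025). All ONC channels lay above all CTR channels in 1 of 4, beside 5.76% (940 genes). The criterion of the study's methods, which sets a fold-change threshold from each gene's variability, was computed on the values normalised here and not by the study's own normalisation. It was met by 1 of 4, beside 3.29% (536 genes). With each channel scaled to its median and no loess 3 of 4 were called, beside 19.6% of all genes (3194). These were Isl1, Atoh7 (0.65, adjusted p = 0.0344) and Ebf1 (0.80, adjusted p = 0.0494). Over the alternatives run the adjusted p was 0.0344 to 1 for Atoh7 and 0.0494 to 1 for Ebf1. Leaving out the loess also turned the calls among all genes from 46.9% to 71.0% higher in ONC, and the share was 71.4% with normexp background and 57.1% with the software's processed signal.

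The 4 tested members were all higher in ONC, under each scaling and background alternative too, with a median difference of 0.46 (0.42 to 0.56 with 1 channel left out) beside -0.01 over all genes tested, 47.4% of which were higher in ONC. Without loess that median was 0.73, beside 0.07 over all genes, 59.4% of which were higher. A larger difference than that of Isl1 was found in 122 of the 16307 genes, than that of Ebf1 in 1518 and than that of Atoh7 in 3839.

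The 4 members that failed the filter are described from a fit without it, over 26334 gene names, in which limma called 0 genes (2008 at an unadjusted p under 0.05). Their levels come from another background correction and are not set beside the levels above.

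Pou4f3, known as Brn3c, marks a subset of ganglion cells and, outside the retina, hair cells of the ear. It had 2 probes in rn4, at chr18:35602995-35603054, plus strand (A_64_P108165) and chr18:35601740-35601799, plus strand (A_64_P108160). The second ends on the stop codon of an open reading frame, in capitals, and is shown because it did not follow the first.
Pou4f3 probe A_64_P108160: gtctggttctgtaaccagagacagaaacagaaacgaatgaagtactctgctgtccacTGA
The first probe had a foreground of 85.9, 422, 89.2 and 97.2 in CTR1 to CTR4, against 318, 474, 313 and 74.2 in ONC1 to ONC4, with CTR2 and the first 3 ONC channels bright. The second stayed between 63.2 and 125 and was well above background in 2 of 8 channels. The first was well above background in 5 of 8 channels, but not in CTR1, CTR3 or ONC4. The difference was 1.15 for the first and 0.25 for the second. Since both include channels near background, neither value is an exact size. The gene's unfiltered log2 levels were -2.43, -1.50, -2.04 and -1.93 in CTR1 to CTR4, against -0.90, -1.29, -1.05 and -1.87 in ONC1 to ONC4. The groups overlapped, with ONC4 among the CTR channels. The difference was 0.70 ± 0.25 (SE; adjusted p = 0.490), and 0.86 without CTR2 and 0.90 without ONC4. Over all 8 left-out channels it ran from 0.54 to 0.90.

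Isl2, the LIM homeodomain relative of Isl1, is made by a subset of ganglion cells. It failed narrowly: its spot (A_64_P000386; chr8:59110628-59110687, plus strand, rn4) was at 1.96 times the background in CTR4 and above the minimum in the other 7 channels. Foreground was 166, 722, 169 and 134 in CTR1 to CTR4, against 324, 532, 324 and 95.6 in ONC1 to ONC4. Unfiltered log2 levels were -1.45, 0.22, -1.20 and -1.48 in CTR1 to CTR4, against -0.10, 0.11, -0.11 and -1.50 in ONC1 to ONC4. CTR2 was the highest of all 8 channels. ONC4, where the spot was not well above background, was the lowest but close to CTR4. Within the arrays ONC minus CTR was 1.35, -0.11, 1.09 and -0.02, higher in 2 of 4. The difference was 0.57 ± 0.46 (SE; adjusted p = 1), and 0.97 without CTR2 and 0.94 without ONC4. Over all 8 left-out channels it ran from 0.40 to 0.97.

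Irx2, an Iroquois factor, had 2 probes in rn4, at chr17:744212-744271, minus strand (A_44_P445575) and chr17:746787-746846, minus strand (A_64_P138199). The second has an open reading frame and is shown because it stayed near background.
Irx2 probe A_64_P138199: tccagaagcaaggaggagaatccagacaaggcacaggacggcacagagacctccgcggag
The first had a foreground of 105, 564, 100 and 103 in CTR1 to CTR4, against 278, 440, 258 and 71.5 in ONC1 to ONC4, with CTR2, ONC1, ONC2 and ONC3 bright. The second stayed between 77.3 and 112 and was well above background in CTR2 and ONC2 alone. The first was not well above background in ONC4, and was at 1.99 and 1.85 times the background in CTR1 and CTR3. The difference was 0.68 for the first and 0.17 for the second. Since both include channels near background, neither value is an exact size. The gene's unfiltered log2 levels were -2.07, -1.37, -1.90 and -1.75 in CTR1 to CTR4, against -1.31, -1.21, -1.11 and -1.74 in ONC1 to ONC4. CTR2 lay beside the 3 high ONC channels and ONC4 beside CTR4. The difference was 0.43 ± 0.19 (SE; adjusted p = 0.644), and 0.56 without CTR2 and 0.56 without ONC4. Over all 8 left-out channels it ran from 0.33 to 0.56.

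Ebf3, the second COE factor, failed on array 4. Its spot (A_64_P096071; chr1:196928457-196928516, minus strand, rn4) was well above background in all 8 channels. On array 4, though, the local background was 125 in CTR4 and 364 in ONC4, while in the remaining channels it did not pass 57.5, and the software marked it as uneven. Unfiltered log2 levels were -0.41, 0.06, -0.41 and -0.83 in CTR1 to CTR4, against 0.35, 0.27, 0.38 and 0.53 in ONC1 to ONC4. The groups did not overlap, and CTR2 was the highest CTR channel. On filtered levels 5.76% of all genes were higher in ONC without overlap, and that share is not given for unfiltered levels. The difference was 0.78 ± 0.18 (SE; adjusted p = 0.270), with 0.76, 0.21, 0.78 and 1.36 within the arrays. With 1 channel left out it ran from 0.64 to 0.93. Without both channels of array 4 it was 0.58 (adjusted p = 0.718, in a range of 0.0669 to 1).

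No spot carried the gene name of Eomes, but 1 spot (A_64_P022461; chr8:123383362-123383421, plus strand, rn4) is described in the array annotation as a predicted Eomes transcript. It lies outside the rule and was chosen after its values were seen. Its foreground lay between 83.9 and 145, or 1.71 to 4.18 times the background, and it was well above background in all channels but ONC4. Its unfiltered difference was 0.13 ± 0.14 (SE; adjusted p = 1). With 1 channel left out it ran from 0.05 to 0.22. Pou4f1, which many ganglion cells make, was matched to no spot, so it has no value here.

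**Figure D3:**
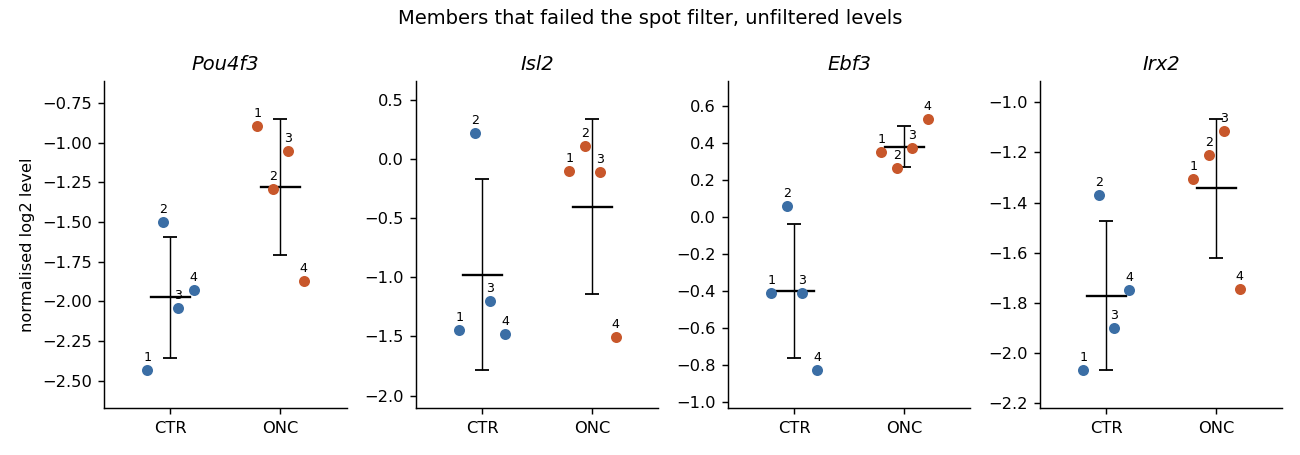
Unfiltered normalised log2 level of the 4 members that failed the filter, 1 point per channel with its number, with the mean and SD of each group as bars; each panel has its own scale. CTR2 is the highest CTR point and ONC4 the lowest ONC point for Pou4f3, Isl2 and Irx2, and ONC4 is the highest ONC point for Ebf3.

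The members' patterns over the channels differed. Pou4f2, Isl2 and the first probes of Irx2 and Pou4f3 were high in ONC1, ONC2, ONC3 and CTR2. Isl1 and Ebf3 were higher in ONC on 4 of 4 arrays with no overlap between the groups. On filtered levels 5.76% of all genes (940 of 16307) were higher in ONC without overlap. That share is not given for the unfiltered levels used for Ebf3. Atoh7 and Ebf1, and on unfiltered levels Pou4f3 and Irx2, were also higher in ONC on 4 of 4 arrays, but with overlap. On array 4 the difference was only 0.054 for Pou4f3 and 0.0057 for Irx2. The share of all genes higher on 4 of 4 arrays is not given. Fitted without the filter, 8 of 8 members were higher in ONC on average, beside 52.8% of all genes, and limma called 0 of 8. The levels of Pou4f3 and Irx2 in that count include a probe well above background in 2 of 8 channels. With the array as a block that fit called 1 of 8, Isl1 (adjusted p = 0.0263), beside 4.02% of all genes (1059 of 26334). That block fit was chosen after seeing the data.

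**Figure D4:**
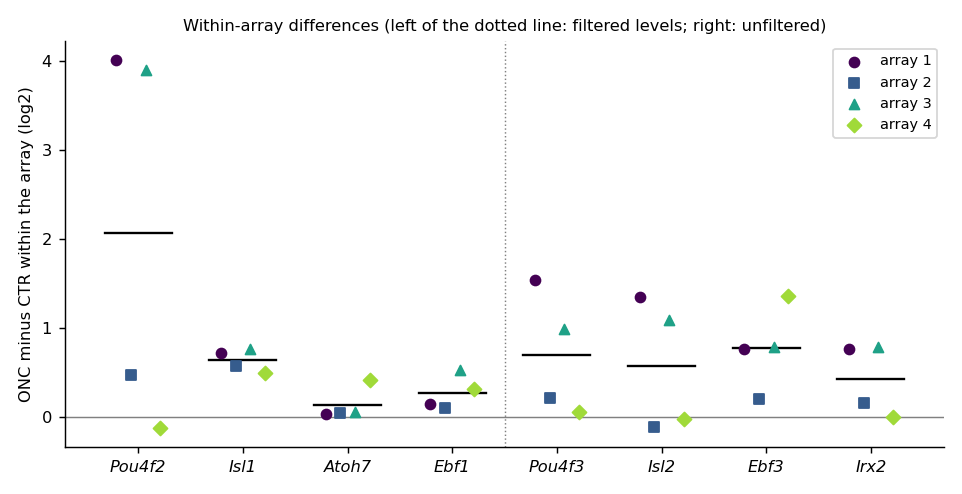
Log2 level in ONC minus CTR inside each of the 4 arrays (symbols) for the 8 members found, with the overall difference as a black line; genes left of the dotted line use filtered levels and the others unfiltered ones. Pou4f2 differs by 4.01 and 3.90 on arrays 1 and 3 and by 0.48 and -0.13 on arrays 2 and 4, whereas Isl1 stays between 0.50 and 0.76.

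Genes whose channel pattern was most like a member's were sought by the root mean square (RMS) difference between log2 levels, each gene set to its own mean, over the 8 channels. For Pou4f2 the nearest were ENSRNOT00000070876, a transcript without a symbol, at an RMS of 0.26, Slc17a6, a vesicular glutamate transporter, at 0.40, and Nefh, the heavy neurofilament, at 0.43. The RMS of Pou4f2 around its own mean was 1.73. For Isl1 they were Slitrk6 (0.05), Lzts1 (0.05) and Zwilch (0.07), beside 0.33 for Isl1 around its mean. For Atoh7 they were Tpcn1 (0.06), Cyp4a1 (0.06) and Trim58 (0.06), beside 0.22. For Ebf1 they were Lce1m (0.11), Gtf3c2 (0.16) and Ocrl (0.17), beside 0.36.

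Genes reported as targets of Pou4f2 and Isl1 were read as a list. Here and below, square brackets after a gene's difference hold its lowest and highest value with a channel or replicate number left out and, after the semicolon, over the other alternatives. For the list counts, the shares over all genes were 0.497% called by limma, 7.69% with the block and 19.6% without loess. At an unadjusted p under 0.05 the share was 18.6%. Of 14 named 8 were tested, 7 higher and 1 lower in ONC, with a median difference of 0.41. That median was 0.66 without CTR2, 0.77 without ONC4, 0.27 without ONC1 and 0.18 without the filter. Limma called 0, with 0 at an unadjusted p under 0.05. The list's median level was -0.58, 0.60, -0.41 and -0.60 in CTR1 to CTR4, against 0.83, 0.61, 0.61 and -0.80 in ONC1 to ONC4, high in CTR2 and in the first 3 ONC channels, though not in each gene. Many of its genes, such as Nefm, Gap43 and Stmn2, also belong to the ganglion cell effectors described below. The channel order of these lists is thus partly shared by construction. Nefm, the medium neurofilament, had the highest difference, 1.47 ± 0.90 (SE; adjusted p = 0.427) [0.92 to 2.30; 1.20 to 1.48]. Its levels were -0.21, 2.84, 0.12 and -0.13 in CTR1 to CTR4, against 2.90, 2.99, 2.97 and -0.35 in ONC1 to ONC4, with CTR2 again high and ONC4 low. Gap43, a growth cone protein whose lowest level was in CTR2, had the lowest difference, -0.07 [-0.17 to 0.12; -0.12 to -0.05], which changed sign without CTR4 (0.05). Stmn2, a tubulin-binding protein and the list's gene of highest mean level, differed by 0.16 ± 0.24 (SE; adjusted p = 0.783) [-0.03 to 0.40; 0.08 to 0.21].

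Ganglion cell effectors, whose medians by channel open the results, were higher in ONC in 18 of 20 tested and lower in 2, with a median difference of 0.66. That median was 1.06 without CTR2 and 1.19 without ONC4, and 0.35 without both channels of array 1. Limma called 0, with 1 at an unadjusted p under 0.05, and 2 without loess. Slc17a6 had the highest difference, 1.79 ± 1.11 (SE; adjusted p = 0.434) [1.01 to 2.79; 1.44 to 1.92], with 4.10, 0.03, 3.60 and -0.58 within the arrays. Chrna6, a nicotinic receptor subunit, had the lowest, -0.08 [-0.26 to 0.14; -0.14 to 0.14], and 0.14 with the processed signal. Pvalb, the calcium buffer parvalbumin and the list's gene of highest mean level, differed by 0.61 ± 0.30 (SE; adjusted p = 0.321) [0.43 to 0.89; 0.49 to 0.63].

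Other ganglion cell transcription factors and cofactors lacked that channel order in their median. It was -0.04, -0.12, -0.18 and -0.05 in CTR1 to CTR4, against 0.16, 0.06, 0.15 and 0.13 in ONC1 to ONC4. All ONC medians thus lay above all CTR medians. Of 34 named 25 were tested, 18 higher and 7 lower in ONC, with a median difference of 0.19 (0.15 to 0.24 with 1 channel left out and 0.38 without loess), 8 at an unadjusted p under 0.05 and 1 called, or 9 without loess. The 1 gene was Satb1, a chromatin organiser, with levels of 0.52, 1.03, 0.68 and 0.64 in CTR1 to CTR4, against 1.78, 1.47, 1.78 and 1.34 in ONC1 to ONC4. Its groups did not overlap, beside 5.76% of all genes that were higher in ONC without overlap. Satb1 differed by 0.87 ± 0.14 (SE; adjusted p = 0.0446) [0.75 to 1.02; 0.81 to 0.87]. The call was lost without any 1 of the 8 channels, CTR or ONC, at an adjusted p of 0.0660 (without ONC2) to 0.178 (without ONC3). On all 8 channels it was lost with normexp (adjusted p = 0.0617), with the processed signal (0.0663), without the filter (0.226) and with ONC1 and ONC3 averaged (0.167). With the array as a block 5 of the 25 were called, Satb1, Klf9 and Ldb1 among them. Klf9, a Krüppel-like factor and the gene of highest mean level, differed by 0.55 ± 0.10 (SE; adjusted p = 0.0550) [0.48 to 0.60; 0.47 to 0.56], and was called with the block (0.0334), without loess (0.0134), with Aquantile (0.0328), with spots well above background (0.0455) and, narrowly, with the brightest probe. Its adjusted p was 0.0134 to 1 over the alternatives. Ldb1, the LIM domain binding cofactor of Isl proteins, was lowest, with levels of -1.81, -1.93, -1.47 and -1.50 in CTR1 to CTR4, against -2.30, -2.81, -2.26 and -1.96 in ONC1 to ONC4. All its ONC levels lay below all its CTR levels, and the share of all genes lower in ONC without overlap is not given. Ldb1 differed by -0.66 ± 0.18 (SE; adjusted p = 0.114) [-0.78 to -0.50; -0.67 to -0.48], with an adjusted p of 0.0304 to 1 over the alternatives.

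Among 32 relatives from the members' gene families 20 were tested, 15 higher and 5 lower, with a median difference of 0.08, or 0.24 without loess. Limma called 0, with 1 at an unadjusted p under 0.05, and 6 without loess. Lhx2, a LIM homeodomain gene, was lowest at -0.42 ± 0.14 (SE; adjusted p = 0.159) [-0.56 to -0.29; -0.46 to -0.34], called without loess (adjusted p = 0.0431), and Neurod2, a basic helix-loop-helix gene, highest at 0.34 ± 0.16 (SE; adjusted p = 0.291) [0.24 to 0.45; 0.32 to 0.48]. Tbx21, a T-box gene, had the highest mean level and differed by 0.23 ± 0.27 (SE; adjusted p = 0.714) [-0.08 to 0.37; -0.03 to 0.24], but by -0.03 without loess and -0.08 without CTR4.

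Isl1 is also a bipolar cell gene and belongs to that list, of which 12 of 12 were tested. In ONC 9 were higher and 3 lower, the median difference was 0.13 (0.09 to 0.21 with 1 channel left out), 4 had an unadjusted p under 0.05, and 1, Isl1 itself, was called, or 3 without loess. The bipolar median was -0.14, -0.15, -0.01 and -0.04 in CTR1 to CTR4, against 0.18, -0.12, 0.19 and 0.07 in ONC1 to ONC4, without the split seen for Isl1. Otx2, a homeodomain factor and the list's gene of highest mean level, was at 0.08 [-0.01 to 0.16; -0.22 to 0.16], but at -0.22 without loess. Of 12 amacrine genes tested 6 were higher and 6 lower (median 0.02, but -0.07 with the processed signal, 0.10 without loess, 0.10 without the filter and -0.03 to 0.09 with 1 channel left out), with 4 at an unadjusted p under 0.05 and 0 called by limma, or 1, Slc6a9, with the array as a block and 2 without loess. They ran from Slc6a9, a glycine transporter, at -0.41 ± 0.12 (SE; adjusted p = 0.121) [-0.47 to -0.33; -0.61 to -0.18] to Tfap2a at 0.58 [0.28 to 0.73; 0.54 to 0.58], with Calb2, of highest mean level, at 0.40 [0.15 to 0.70; 0.18 to 0.55], or 0.18 without loess. With the brightest probe Slc6a9 was at -0.18. The adjusted p of Slc6a9 was 0.0334 to 1 over the alternatives. Of 6 horizontal cell genes 3 were higher and 3 lower (median 0.00, but 0.24 without loess and -0.10 to 0.09 with 1 channel left out), with Lhx1 lowest at -0.16 [-0.22 to -0.09; -0.19 to -0.07], Tfap2a highest in difference and in level, and 0 called or at an unadjusted p under 0.05, though 1 called without loess. The part of these cells in the Isl1 difference was not tested.

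Other retinal cells were scored beside the members. Of 14 rod and cone genes tested 5 were higher and 9 lower in ONC (median -0.26, -0.27 to -0.19 with 1 channel left out and -0.35 without loess), with 4 at an unadjusted p under 0.05 and 0 called by limma, or 4 with the block and 5 without loess. Of 9 Müller glia genes tested 2 were higher and 7 lower (median -0.33, -0.46 to -0.25 with 1 channel left out), with 3 at an unadjusted p under 0.05 and 0 called by limma, or 3 with the block and 2 without loess. Gfap was lowest at -1.15 [-1.59 to -0.75; -1.29 to -0.99] and Glul highest at 0.58 [0.29 to 0.76; 0.45 to 0.68], and Apoe, of highest mean level, was at -0.10 [-0.24 to 0.00285; -0.48 to -0.03], but -0.48 without loess. Gfap levels were -1.84, -1.71, -0.20 and 0.17 in CTR1 to CTR4, against -1.67, -3.26, -1.57 and -1.69 in ONC1 to ONC4, so only CTR3 and CTR4 were high. Of 12 microglia and macrophage genes 1 was higher and 11 lower (median -0.32, -0.51 to -0.22 with 1 channel left out), with 4 at an unadjusted p under 0.05 and 0 called by limma, or 1 without loess. C1qb, of highest mean level, was lowest at -0.69 [-1.11 to -0.39; -0.75 to -0.55] and Cx3cr1 highest at 0.39 [0.27 to 0.54; 0.36 to 0.46]. The microglial median was 0.14, -0.38, 0.51 and 0.53 in CTR1 to CTR4, against -0.28, -0.11, -0.32 and -0.06 in ONC1 to ONC4, and CTR2, where Pou4f2 was high, was the lowest channel. The glial and microglial directions go by the labels, with the conflict given above. The study reports immune response genes among those higher after crush and holds activation of retinal glia to be likely.

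Lens, blood, pigment epithelium and vessel genes were measured too. The lens median was -0.09, 1.23, 0.03 and -0.42 in CTR1 to CTR4, against -0.50, 0.13, -0.64 and 0.39 in ONC1 to ONC4, so CTR2 was highest. Of 10 lens genes 2 were higher and 8 lower in ONC (median -0.37, -0.58 to -0.02 with 1 channel left out, 1 at an unadjusted p under 0.05). They ran from Cryaa at -0.95 [-1.26 to -0.70; -1.03 to -0.84] to Crygb at 0.10 [-0.37 to 0.57; -0.06 to 0.24], but -0.06 without loess, with Crygs, of highest mean level, at -0.41 [-0.83 to -0.05; -0.59 to -0.30]. Of 4 blood genes tested 4 were higher (median 0.15, -0.00287 to 0.33 with 1 channel left out, 0 at an unadjusted p under 0.05), from Hbb-b1, of highest level, at 0.07 [-0.06 to 0.29; -0.02 to 0.20], or 0.00 without loess, to Hba1 at 0.38 [0.26 to 0.56; 0.27 to 0.39]. Of 6 pigment epithelium genes tested 5 were higher and 1 lower (median 0.11, 0.00375 to 0.35 with 1 channel left out, 1 at an unadjusted p under 0.05). The lower was Mitf at -0.12 [-0.18 to -0.05; -0.19 to 0.08], though 0.08 without loess, the highest Rpe65 at 0.79 [0.41 to 1.19; 0.68 to 0.81], and Ttr, of highest level, was at 0.11 [-0.14 to 0.47; -0.16 to 0.16], but -0.16 without loess. Of 9 endothelium and pericyte genes tested 5 were higher and 4 lower (median 0.05, -0.02 to 0.05 with 1 channel left out, 0 at an unadjusted p under 0.05), from Rgs5 at -0.19 [-0.31 to -0.08; -0.28 to -0.14] to Pecam1 at 0.18 [0.12 to 0.29; 0.15 to 0.21], with Kdr, of highest level, at 0.12 [0.02 to 0.22; -0.25 to 0.16], but -0.25 without loess. Limma called 0 genes of these 4 lists, and 1, Cryaa, without loess (adjusted p = 0.0358). The part of these tissues in the members' differences was not tested.

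**Figure D5:**
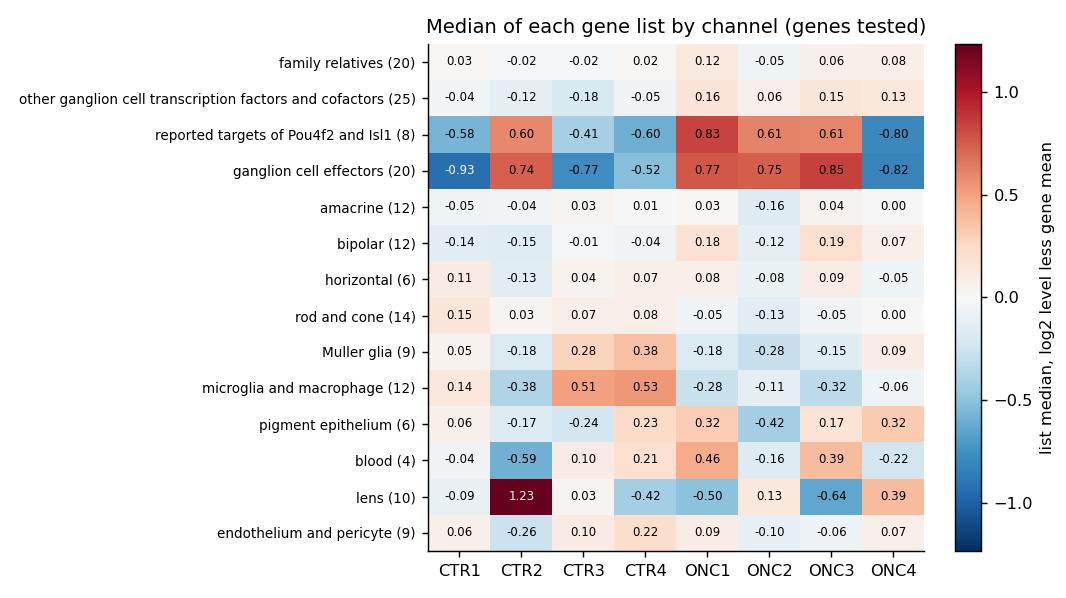
Median log2 level of each gene list, with every gene set to its own mean, in the 8 channels (colour and number), with the number of genes tested in brackets. The reported targets and the ganglion cell effectors, which share genes, are positive in CTR2, ONC1, ONC2 and ONC3 and negative in the other channels, and the lens list peaks in CTR2 at 1.23.

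The promoters of Pou4f2, Isl2 and Irx2 (by its first probe), which were high in the same channels, and of Isl1, which was not, are printed so that they can be compared. They are the 250 bases before the start in RefSeq, build GRCr8, which is not the build of the array, and 10 of 10 members were matched. They lie at chr19:46390708-46390957, plus strand (Pou4f2), chr8:64819629-64819878, plus strand (Isl2), chr1:32494931-32495180, minus strand (Irx2) and chr2:49823443-49823692, minus strand (Isl1). Capitals mark matches on either strand to any of 5 motifs. These are the POU class IV motif ATTAAT, the Isl1 motif CTAATG, the E-box CANNTG, which reads the same on both strands, the T-box motif GGTGTGA and the TATA box TATAAA, and no printed matches overlap.
Pou4f2 promoter: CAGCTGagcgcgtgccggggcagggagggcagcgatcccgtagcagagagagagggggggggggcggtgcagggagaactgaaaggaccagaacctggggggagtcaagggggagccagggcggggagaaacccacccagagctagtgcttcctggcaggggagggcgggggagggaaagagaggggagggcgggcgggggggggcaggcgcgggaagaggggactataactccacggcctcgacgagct
Isl2 promoter: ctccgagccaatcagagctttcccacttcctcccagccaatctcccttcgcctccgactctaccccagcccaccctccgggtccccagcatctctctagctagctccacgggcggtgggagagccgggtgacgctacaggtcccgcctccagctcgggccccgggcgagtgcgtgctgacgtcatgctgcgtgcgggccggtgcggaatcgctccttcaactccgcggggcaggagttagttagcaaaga
Irx2 promoter: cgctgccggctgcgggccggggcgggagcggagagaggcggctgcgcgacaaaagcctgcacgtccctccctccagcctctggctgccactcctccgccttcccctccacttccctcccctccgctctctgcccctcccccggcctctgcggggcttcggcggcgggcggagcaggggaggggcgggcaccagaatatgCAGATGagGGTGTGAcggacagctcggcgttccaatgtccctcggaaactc
Isl1 promoter: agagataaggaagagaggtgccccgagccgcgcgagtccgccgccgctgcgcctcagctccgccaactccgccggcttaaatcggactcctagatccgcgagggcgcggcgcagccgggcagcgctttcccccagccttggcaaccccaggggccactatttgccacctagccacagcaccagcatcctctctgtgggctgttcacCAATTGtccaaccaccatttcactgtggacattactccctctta
Pou4f2 and Isl1 held 1 E-box each, at 250 and 44 bases before the start. Irx2 held an E-box at 51 and a T-box motif at 43, and Isl2 held none of the 5 motifs in this window. The promoter of Pou4f3, whose first probe was high in the same channels, is not printed and held E-boxes at 139 and 75. Of the 10 members 7 held an E-box, beside 65.5% of 33469 promoters of the same length. The T-box motif was in 1 of the 10, Irx2, beside 3.22% of all promoters, and the POU class IV motif in 1, Eomes, beside 4.71%. The Isl1 motif was in 0 of the 10, beside 7.48%, and the TATA box in 0, beside 12.9%. A match describes letters in a window and no site.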

How the data were processed

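RNA was measured on 4 two-colour arrays of 1 slide read in 1 scan, so slide and scan were not tested as batches. The authors deposited the scanner software's spot intensity values: mean foreground and median local background, uncorrected, and a processed signal, background-subtracted and dye-normalised. Per the file headers the software version was 12.0.3.1, while the labels name Agilent Feature Extraction 11.1.19.1. The members and gene lists were chosen with earlier results of these data known.

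Of 44254 spots 1377 controls were left out. Spots with an outlier mark, or too dim in any channel, were then dropped, which left 27371 spots, 18599 probes and 16307 genes. Local background was taken off, loess (span 0.3) was run within each array, each channel was centred on its median, and spots and then probes were averaged on the log2 scale. Limma 3.58.1 in R 4.3.3 (lmFit, eBayes, two-sided, Benjamini-Hochberg over all genes) called genes at an adjusted p under 0.05. No block was used in the main fit, since the study's own test is unpaired. By the labels, though, each array holds a CTR and an ONC retina, and the block was run as an alternative. The code was tested on simulated data. Tables and figures used Python 3.11.15, pandas 2.3.3, numpy 2.4.6 and matplotlib 3.10.9. The number of arrays limits precision.

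Alternatives were the replicate block (the array), median scaling without loess, Aquantile, normexp (offset 50), the processed signal, no filter (normexp, 26334 genes), spots well above background (and brighter than it, so that a log exists), the brightest probe, each channel or replicate number left out, and the criterion of the methods. Chosen after seeing the data were ONC1 and ONC3 averaged as 1 sample, and the left-out and block fits without the filter. Deviations of same-numbered channels from their group means correlated across genes, which are not independent replicates, at 0.149, 0.549, 0.401 and 0.487. Differently numbered channels of the 2 groups ran from -0.512 to 0.171, and the highest, CTR1 with ONC2, exceeded the 0.149 of array 1. The methods describe 4 separate retinas per group, and p-values measure only the spread between these samples. Named genes were all members, from the lists some of the genes of highest or lowest difference, of highest mean level or called, and the 3 nearest profiles of each tested member. Not every list has a gene of each kind named, and not all named genes are described.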

Additional observations from a re-analysis of the deposited data

Results flagged for a closer look

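In 6 of 44 groups of 4 channels, 1 channel lay far from the other 3, judged by its gap to the nearest channel over the range of the group. Chance gives about 1 in 20 groups. For Pou4f2 this was ONC4, at a log2 level of -3.14 where the nearest ONC channel was at -0.05 (ratio 0.993). For Isl2 without the filter both groups had such a channel, CTR2 at 0.22 with the nearest at -1.20 (ratio 0.833), and ONC4 at -1.50 with the nearest at -0.11 (ratio 0.863). The median of the reported targets of Pou4f2 and Isl1 gave the same 2 channels, with ratios of 0.836 for CTR2 and 0.860 for ONC4. The median of the ganglion cell effectors gave ONC4 (ratio 0.943). The lists share genes, so the 6 are not independent. Whether a label, a retina or a channel lies behind them was not tested.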

How the results depend on the processing

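The count of genes called by limma was 81 as reported, 1254 with the replicate block, 3194 with median scaling and no loess, 412 with Aquantile, 14 with normexp, 21 with the processed signal, 123 with spots well above background and 124 with the brightest probe. It was 0 without the filter (2008 at an unadjusted p under 0.05) and 0 with ONC1 and ONC3 averaged as 1 sample (2176). The test of the study's methods passed 2778 genes unadjusted, 1 after Benjamini-Hochberg and 536 with its fold-change threshold. Leaving out a channel or replicate number gave 0 to 38 calls, where between 1384 and 3252 genes had an unadjusted p under 0.05.

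Members called were 1 as reported, 3 without loess, 0 without the filter, 0 with ONC1 and ONC3 averaged, 0 by the methods' test after Benjamini-Hochberg, and 0 to 1 with a channel or replicate number left out. The replicate block changed no member's call with the filter (1 of 4). Without the filter it called 1059 genes, Isl1 among them, in place of 0, a fit chosen after seeing the data. The members' median difference was 0.46, and 0.73 without loess. Isl1 lost its call without the filter (0.64, adjusted p = 0.205) and with ONC1 and ONC3 averaged (0.64, adjusted p = 0.167), in a range of 0.00839 to 1 over the alternatives. With the filter, and a channel or replicate number left out, its difference ran from 0.60 to 0.69. Atoh7 (0.65) and Ebf1 (0.80) gained calls without loess. Pou4f2 kept its direction and gained no call. The causes were not tested.

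Of 45 named genes outside the members 14 changed sign, 0 of them past the threshold. With samples left out, Tbx21 ran from -0.0786 to 0.37, Gap43 from -0.17 to 0.12, Stmn2 from -0.0306 to 0.40, Chrna6 from -0.26 to 0.14, Otx2 from -0.0127 to 0.16, Apoe from -0.24 to 0.00285, Ttr from -0.14 to 0.47, Hbb-b1 from -0.0564 to 0.29, Trim58 from -0.0367 to 0.16, Gtf3c2 from -0.0465 to 0.30 and Crygb from -0.37 to 0.57. Without loess Mitf was at 0.0754, Tbx21 at -0.0274, Otx2 at -0.22, Ttr at -0.16, Kdr at -0.25, Hbb-b1 at -0.000867 and Crygb at -0.0559. With the processed signal Chrna6 was at 0.14, Cyp4a1 at -0.0237 and Trim58 at -0.21. Without the filter Trim58 was at -0.0186, and with ONC1 and ONC3 averaged Hbb-b1 was at -0.0250 and Ttr at -0.0192. Signal over background limits the 6 failed member spots.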
